A study of Homo sapiens with 24 samples.

Results

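A set of 10 genes of the ERK feedback system were followed in SK-MES1 cells, an established line from a squamous cell carcinoma of the lung, during stimulation with TGFβ1. The genes were DUSP1, DUSP4, DUSP5, DUSP6, SPRY1, SPRY2, SPRY4, SPRED1, SPRED2 and SPRED3. They were taken by name and all were kept whatever their values, but the choice was made with earlier results of these data known. They are 10 of the 34834 genes with a transcript in the tables. All 10 passed the filter on low counts. The cells were deprived of serum for 3 h and then given TGFβ1 at 2 ng/ml or left untreated. RNA was taken at 0, 8, 24 and 48 h from 3 replicates per arm and time point. The study calls such samples biological replicates, and the labels do not say whether they came from separate experiments, so the p-values measure the spread between these samples, part of which may be technical. All groups share the line and the serum deprivation.

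ERK, the last kinase of the RAS, RAF and MEK cascade, switches on genes whose products restrain the cascade. The dual-specificity phosphatases (DUSPs) remove phosphate from ERK and related kinases. Sprouty proteins (SPRY) act upstream, between growth factor receptors and RAF, and SPRED proteins bring the RAS-inactivating protein neurofibromin to the membrane. Because their transcription follows ERK activity, the mRNAs of several of these genes are widely used as readouts of the pathway. TGFβ signals chiefly through SMAD transcription factors, and it can also activate ERK.

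The region before the transcription start is shown for 3 of the genes, because the course of DUSP1 over time was the least like those of the others, and because SPRY2 and SPRED1 were higher with TGFβ1 at every time from 8 h. The sequences are the 150 bases before the start, from the RefSeq table of promoter windows (GRCh38), 5′ to 3′ on the strand of the gene. Capitals mark the cyclic AMP response element TGACGTCA, and none of the 3 stretches overlaps an annotated exon.
DUSP1 (chr5:172771196-172771345, minus strand): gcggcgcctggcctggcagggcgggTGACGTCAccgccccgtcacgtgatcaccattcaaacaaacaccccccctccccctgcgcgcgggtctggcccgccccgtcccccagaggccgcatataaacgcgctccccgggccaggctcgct
SPRY2 (chr13:80341127-80341276, minus strand): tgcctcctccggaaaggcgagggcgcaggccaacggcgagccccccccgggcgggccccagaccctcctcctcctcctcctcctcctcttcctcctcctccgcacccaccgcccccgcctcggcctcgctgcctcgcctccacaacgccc
SPRED1 (chr15:38252686-38252835, plus strand): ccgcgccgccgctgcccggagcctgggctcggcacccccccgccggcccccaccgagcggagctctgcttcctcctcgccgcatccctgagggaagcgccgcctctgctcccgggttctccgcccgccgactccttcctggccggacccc

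The table held 13 windows of 300 bases for 8 of the genes. DUSP4 and DUSP5 were not matched. TGACGTCA was found, on either strand, only in the window of DUSP1 among these 13, against 1.85% of all 35116 windows. The AP-1 element TGANTCA, which shares no match with it, was found in 1 window of SPRED2 and 1 of SPRED3, against 7.71% of all windows. No window of these genes held the ETS element CCGGAAGT (4.14% of all windows), the SMAD element GTCTAGAC (0.202%) or the CArG box (1.29%). The windows ranged from 39.3% to 76.3% G and C, and 9 of the 13 lay above the median of all windows, 58.7%. These matches describe letters in the windows and were not tested for function.

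The libraries held between 46613589 and 77964234 estimated reads. The labelled treatment was seen in established TGFβ targets: at 8 h SMAD7 averaged 30.6 TPM with TGFβ1 and 7.37 without, PMEPA1 475.7 and 47.0, and TGFBI 1418.2 and 413.7. TPM is a level scaled for transcript length and to the same total in each library. Of 8 squamous markers, PKP1, TP63, SOX2 and DSC3 reached 1 TPM in some library, and the keratins KRT5, KRT6A and KRT14 and the desmoglein DSG3 did not, with group means of at most 0.0622 TPM. The summed level of the 8 markers was 44.7 to 59.1 TPM in untreated libraries and 44.1 to 88.6 TPM in the TGFβ1 arm. Glandular lung markers summed to at most 2.1 TPM and endothelial markers to at most 4.54 TPM. The leukocyte list summed to 9.09 to 41.7 TPM, led by the lysosomal gene CD68, while PTPRC had group means of at most 2.01 TPM and CD3E was listed at 0 in every group. In such bulk samples fewer cells of a type and less RNA per cell cannot be told apart. Tables of the 2 arms carry different codes in their names at every time, and other codes at 24 and 48 h than at 0 and 8 h. What a code stands for is not given, so at 1 time point a code and an arm cannot be told apart.

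At the start none of these genes differed between the arms past the threshold, and by 8 h they differed in both directions. SPRY1, DUSP1 and DUSP4 were lower with TGFβ1 at 8, 24 and 48 h, and DUSP5 joined them at 24 h. SPRY2 and SPRED1 were higher at all 3 times. DUSP6, SPRY4 and SPRED2 were higher at 8 h and no longer differed past the threshold at 48 h. In limma voom, with an adjusted p of 0.01 as the threshold, 9 of the 10 genes passed the moderated F-test over 8, 24 and 48 h, where 42.5% of the 17453 tested genes passed. Of the 9, 5 had a mean log2 difference above 0 and 4 below, where 21% and 21.5% of tested genes passed with these signs. SPRED3 was the gene that did not pass (adjusted p = 0.1).

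**Figure D1:**
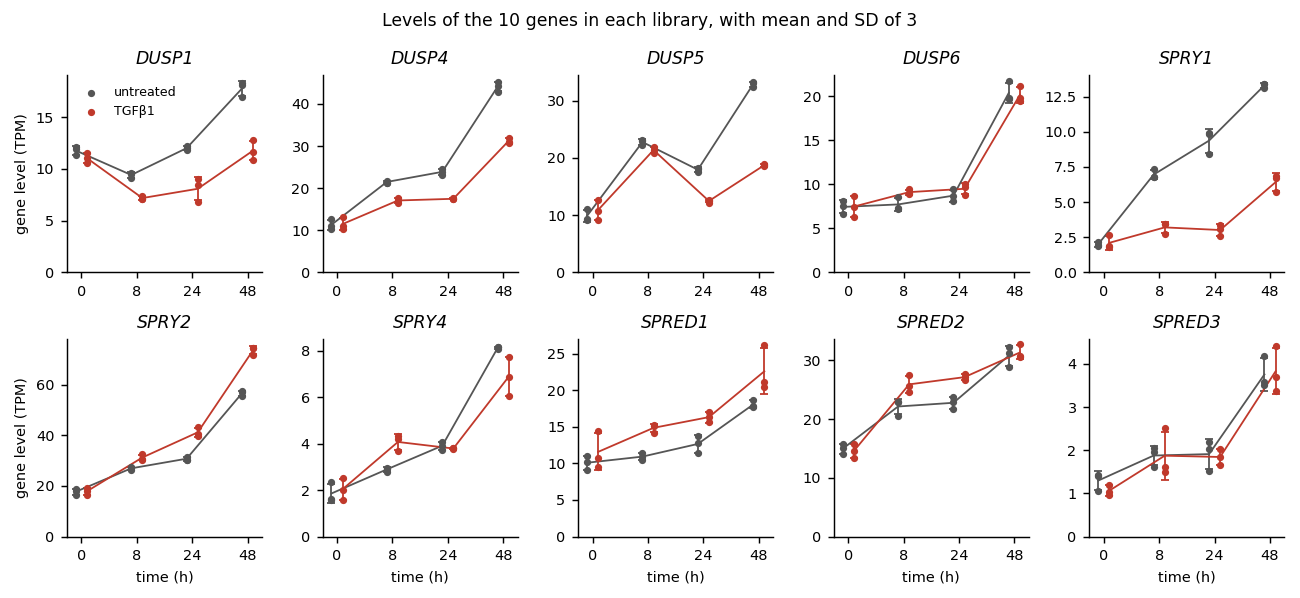
Gene levels in TPM (vertical axes from 0) at 0, 8, 24 and 48 h (evenly spaced) in untreated (grey) and TGFβ1 (red) libraries; points are libraries, and lines and bars give the mean and SD of 3. SPRY1 in untreated cells climbs to 13.1 to 13.4 TPM at 48 h against 5.69 to 6.84 TPM with TGFβ1, whereas SPRY2 with TGFβ1 (71.8 to 74.6 TPM) lies above untreated cells (55.5 to 57.4 TPM).

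At 0 h, none of the 10 genes passed the test between arms. No gene of the 17453 did in limma voom (0%), although 800 had an unadjusted p below 0.05. edgeR called 0 genes there and DESeq2 called 8. The TPM ranges of the arms overlapped for all 10 genes at 0 h, where 6.98% of tested genes had ranges that did not overlap. At 8 h, 8 of the 10 genes passed, 5 of them higher and 3 lower with TGFβ1, where 16.4% of tested genes passed (9.12% higher and 7.26% lower). On log2(TPM + 1) 4 of the 8 calls at that time were made. At 24 h, 8 passed, 4 in each direction, where 29.3% of tested genes passed (15.4% higher and 13.8% lower). At 48 h, 6 passed, 2 higher and 4 lower, where 32.6% of tested genes passed (16.1% higher and 16.4% lower). The TPM ranges of the arms did not overlap for 9 genes at 8 h, 7 at 24 h and 7 at 48 h. Over all tested genes that share was 47.4%, 40.3% and 55.1%, so it is a weak criterion with 3 libraries per group.

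**Figure D2:**
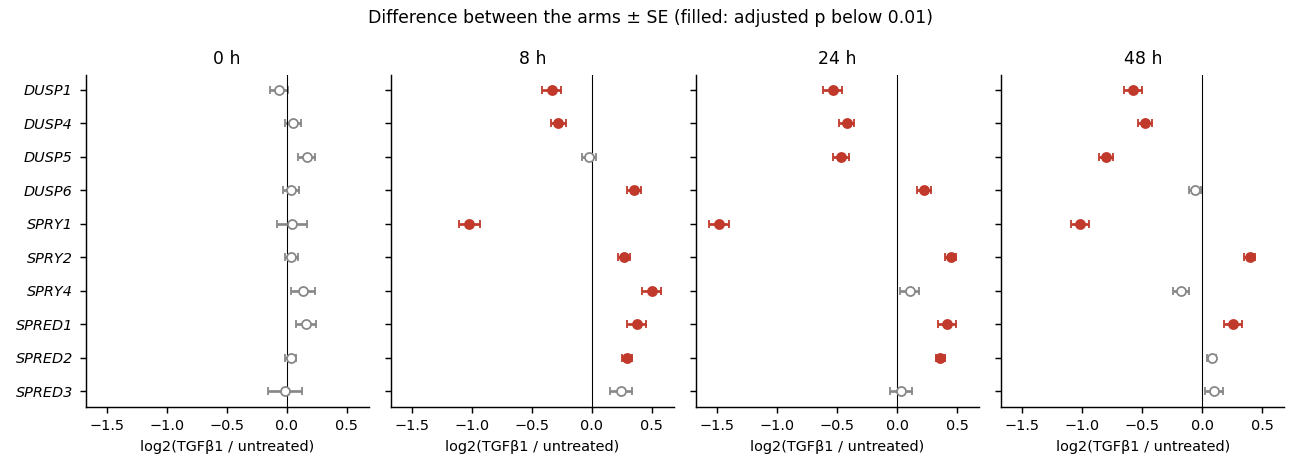
Log2 difference between TGFβ1 and untreated cells (horizontal axes) with its SE for the 10 genes at 0, 8, 24 and 48 h, from limma voom on 3 libraries per group; filled points passed an adjusted p of 0.01. The 4 filled points to the left of 0 at 48 h are DUSP1, DUSP4, DUSP5 and SPRY1, and SPRY1 at 24 h (-1.48) is the farthest from 0.

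SPRY1 (ENSG00000164056, chromosome 4, 123396795 to 123403760, plus strand), a Sprouty protein that inhibits receptor signalling to RAS, differed most. In untreated libraries it was at 1.95, 1.86 and 2.19 TPM at 0 h, 7.34, 6.75 and 6.76 TPM at 8 h, 9.81, 8.39 and 9.90 TPM at 24 h and 13.4, 13.1 and 13.4 TPM at 48 h. In the TGFβ1 arm it was at 1.88, 1.77 and 2.65 TPM at 0 h, 2.72, 3.42 and 3.45 TPM at 8 h, 3.11, 3.37 and 2.55 TPM at 24 h and 6.84, 6.70 and 5.69 TPM at 48 h. From 8 h every TGFβ1 library lay below every untreated library of its time. SPRY1 was 2.03-fold lower at 8 h (log2 difference -1.02 ± 0.085 SE, adjusted p = 6.2e-09), 2.8-fold lower at 24 h (-1.48 ± 0.086, adjusted p = 7.9e-12) and 2.03-fold lower at 48 h (-1.02 ± 0.074, adjusted p = 2.5e-10). These 3 calls held in each of the 14 other settings and without any 1 of the 24 libraries. Its reads were spread over several transcripts, of which SPRY1-208 had 33.2% to 46.2% of the TPM in every group and SPRY1-206, which has no annotated coding sequence, 21.6% to 28.3%.

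Its change from 0 to 8 h, which was compared within 1 code per arm, also differed between arms. SPRY1 rose 3.36-fold in untreated cells and 1.61-fold with TGFβ1, a difference of -1.07 ± 0.15 on the log2 scale (adjusted p = 2.2e-05). From 24 to 48 h the order was the opposite, with a rise of 1.38-fold in untreated cells and 1.9-fold with TGFβ1 (difference 0.47 ± 0.11, adjusted p = 0.0067). The second difference was less firm: the call was lost in 7 of 14 other settings, edgeR among them. It was also lost without any 1 of 8 libraries, namely untreated replicate 3 at 24 h, each untreated replicate at 48 h, TGFβ1 replicates 1 and 3 at 24 h and TGFβ1 replicates 1 and 2 at 48 h, with values from 0.39 to 0.54 over all such fits. Over the 10 genes, 2 passed the test of a different change from 0 to 8 h (7.88% of tested genes) and 2 from 24 to 48 h (9.11%), SPRY1 and SPRED2 in both cases.

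SPRY2 (ENSG00000136158, chromosome 13, 80335976 to 80341126, minus strand), the most abundant of the 10 in every group, moved the other way from its relative. Untreated libraries held 27.4, 27.0 and 26.4 TPM at 8 h, 31.6, 30.2 and 30.4 TPM at 24 h and 57.4, 55.5 and 56.9 TPM at 48 h. TGFβ1 libraries held 30.3, 30.8 and 32.5 TPM at 8 h, 39.6, 40.6 and 43.2 TPM at 24 h and 74.6, 71.8 and 74.4 TPM at 48 h. The arms did not overlap at these times, whereas at 0 h all 6 libraries lay between 16.4 and 19.1 TPM. SPRY2 was 1.2-fold higher at 8 h (0.27 ± 0.047, adjusted p = 0.00018), 1.36-fold at 24 h (0.45 ± 0.046, adjusted p = 9.6e-08) and 1.31-fold at 48 h (0.40 ± 0.044, adjusted p = 2e-07), and no other setting or left-out library ended these calls. A single transcript made up at least 91.3% of its TPM in every group.

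SPRY4 (ENSG00000187678, chromosome 5, 142310427 to 142326455, minus strand) was scarcer, and its difference did not last. At 8 h it was at 2.97, 2.79 and 2.91 TPM in untreated libraries and 4.33, 3.68 and 4.20 TPM with TGFβ1, without overlap (1.41-fold higher, 0.50 ± 0.078, adjusted p = 4.4e-05). By 24 h the ranges overlapped (0.11 ± 0.078, adjusted p = 0.31). At 48 h the untreated libraries were above, at 8.15, 8.15 and 8.05 TPM against 6.87, 7.71 and 6.06 TPM, but the difference did not pass the threshold (-0.18 ± 0.067, adjusted p = 0.038). The call at 8 h was lost on log2(TPM + 1) and log2(TPM + 0.1), with values of 0.38 and 0.48. Transcripts on the other strand, SPRY4-AS1 among them, overlap this gene, and whether the counting used strand is not stated, so their reads may be mixed.

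DUSP1, DUSP4 and DUSP5, phosphatases of the nucleus, were lower with TGFβ1 at 24 and 48 h. DUSP5 (ENSG00000138166, chromosome 10, 110497907 to 110511533, plus strand), which is specific for ERK, was at 22.2, 23.2 and 22.9 TPM in untreated libraries at 8 h and 21.4, 20.8 and 21.9 TPM with TGFβ1. At 24 h it was at 18.3, 17.5 and 18.0 TPM against 12.7, 12.5 and 12.2 TPM, and at 48 h at 32.4, 33.1 and 33.2 TPM against 19.0, 18.5 and 18.7 TPM. The gap was thus small at 8 h and wide at 48 h. The difference was -0.02 ± 0.06 at 8 h (adjusted p = 0.82), -0.47 ± 0.065 at 24 h (adjusted p = 4.9e-06) and -0.80 ± 0.061 at 48 h (adjusted p = 5.2e-10), which is 1.75-fold lower. Its change from 8 to 24 h differed between arms (-0.45 ± 0.088, adjusted p = 0.0015), the only gene of the 10 to pass that test, which 6.69% of tested genes passed. The DUSP5 call was lost on both TPM scales and with 4 reference genes (-0.40, -0.43 and -0.06), whereas SPRY4 (-0.39 ± 0.11, adjusted p = 0.022) gained a call in 3 of 14 other settings and SPRY1 (-0.46 ± 0.12, adjusted p = 0.014) in 2, DESeq2 among them for both. That contrast crosses the codes in the table names, and their part in the result was not tested.

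DUSP4 (ENSG00000120875, 29333064 to 29350684 on chromosome 8, minus strand), a nuclear phosphatase of ERK and JNK, was lower at all 3 times. It was at 21.8, 21.3 and 21.3 TPM at 8 h in untreated libraries against 17.6, 16.5 and 17.1 TPM, and at 45.1, 44.3 and 42.9 TPM at 48 h against 30.9, 32.0 and 30.8 TPM. The arms did not overlap at either time. The difference was -0.28 ± 0.062 at 8 h (adjusted p = 0.0018), -0.42 ± 0.062 at 24 h (adjusted p = 1.1e-05) and -0.48 ± 0.059 at 48 h (adjusted p = 9.8e-07). The 8 h call was lost without TGFβ1 replicate 2 at 8 h (-0.27).

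DUSP1 (ENSG00000120129, chromosome 5, 172768096 to 172771195, minus strand), the product of an immediate-early gene that acts on p38, JNK and ERK, was at 9.53, 9.11 and 9.58 TPM in untreated libraries at 8 h and at 7.42, 7.06 and 7.05 TPM with TGFβ1. At 24 h it was at 12.0, 11.8 and 12.2 TPM against 9.01, 6.82 and 8.39 TPM, and at 48 h at 18.3, 18.1 and 16.9 TPM against 12.8, 11.6 and 10.9 TPM. No TGFβ1 library reached the untreated range at these times. It was 1.26-fold lower at 8 h (-0.34 ± 0.081, adjusted p = 0.004), 1.45-fold at 24 h (-0.54 ± 0.08, adjusted p = 1.4e-05) and 1.49-fold at 48 h (-0.57 ± 0.075, adjusted p = 1.9e-06). The 8 h call was lost without untreated replicate 1 or 3 or TGFβ1 replicate 2 or 3 at 8 h, with values from -0.36 to -0.32 over all left-out libraries. An antisense gene overlaps DUSP1, as one does DUSP6, with the same limit on strand.

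Scaling to the study's 4 reference genes raised the median of all tested genes by 0.43 at 24 h and 0.34 at 48 h. On that scale the differences in DUSP1, DUSP4 and DUSP5 at 24 h were -0.09, 0.02 and -0.03 and those in DUSP4 at 8 and 48 h -0.23 and -0.12, none past the threshold. The DUSP1 call at 24 h was also lost when only the 6 libraries of that time were fitted (-0.53). Scaling to the reference genes also gained calls for differences above 0. Among them were SPRY4 (0.549) and SPRED3 (0.473) at 24 h and SPRED2 (0.43) at 48 h.

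DUSP6 (ENSG00000139318, chromosome 12, 89347235 to 89352501, minus strand), the cytoplasmic phosphatase of ERK, did not follow these 3. At 8 h it was at 7.32, 8.58 and 7.25 TPM in untreated libraries and 8.85, 9.06 and 9.43 TPM with TGFβ1. At 48 h the arms overlapped, with 19.7, 21.7 and 19.8 TPM against 21.2, 19.8 and 19.5 TPM. Its counts were 1.28-fold higher at 8 h (0.35 ± 0.061, adjusted p = 0.00015), 1.17-fold at 24 h (0.23 ± 0.06, adjusted p = 0.005) and not different past the threshold at 48 h (-0.06 ± 0.052, adjusted p = 0.37). The 24 h call was lost in 7 of 14 other settings and without any 1 of 5 libraries at 24 h, all but TGFβ1 replicate 2 (0.19 to 0.24), and the 8 h call was lost on log2(TPM + 1), on log2(TPM + 0.1) and with length-scaled counts, with values of 0.22, 0.24 and 0.31. DUSP6 reads were shared among 4 transcripts of 4400 to 604 bases, each at between 6.9% and 41.5% of the gene's TPM.

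SPRED1 (ENSG00000166068, chromosome 15, 38252836 to 38357249, plus strand) and SPRED2 (ENSG00000198369, chromosome 2, 65310851 to 65432637, minus strand) were higher with TGFβ1. SPRED1 was at 10.5, 10.9 and 11.4 TPM in untreated libraries at 8 h against 15.3, 14.2 and 15.1 TPM, and at 18.7, 17.7 and 17.8 TPM at 48 h against 21.2, 20.4 and 26.2 TPM. TGFβ1 replicate 3 at 48 h was the highest of all in summed TPM. A short SPRED1 transcript, of 527 bases, was at 0.404, 0.759 and 5.74 TPM in the TGFβ1 libraries at 48 h. The transcript of 7780 bases was at 15.6, 15.1 and 15.6 TPM there, against 12.7, 13.2 and 13.4 TPM in untreated libraries. At 0 h SPRED1 averaged 10.1 TPM in untreated libraries and 11.6 TPM in the TGFβ1 arm, with overlap. The difference in its summed counts there was 0.16 ± 0.081, not past the threshold. That difference was 0.37 ± 0.078 at 8 h (adjusted p = 0.00097), 0.41 ± 0.077 at 24 h (adjusted p = 0.00017) and 0.26 ± 0.075 at 48 h (adjusted p = 0.009). The change of SPRED1 from 0 to 8 h did not differ between arms past the threshold (0.21 ± 0.11, adjusted p = 0.28). The 48 h call stood close to the threshold: it was lost in 7 of 14 other settings and in 16 of the 24 fits without 1 library, among them all 6 without a library of 48 h, with values from 0.23 to 0.27.

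SPRED2 differed for a limited time. It was at 20.6, 22.9 and 22.9 TPM in untreated libraries at 8 h against 27.5, 25.6 and 24.6 TPM, and at 28.9, 31.3 and 32.2 TPM at 48 h against 32.7, 30.5 and 30.8 TPM. The arms were apart at 8 h and overlapped at 48 h. The difference was 0.29 ± 0.04 at 8 h (adjusted p = 8.8e-06), 0.36 ± 0.04 at 24 h (adjusted p = 2.6e-07) and 0.08 ± 0.04 at 48 h (adjusted p = 0.13). Its change differed between arms from 0 to 8 h (0.26 ± 0.059, adjusted p = 0.0043) and, in the other direction, from 24 to 48 h (-0.28 ± 0.056, adjusted p = 0.0014). The first of these calls was lost in 7 of 14 other settings and without any 1 of 7 libraries, namely untreated replicates 1 and 2 at 0 h, untreated replicates 2 and 3 at 8 h, TGFβ1 replicate 1 at 0 h and TGFβ1 replicates 1 and 2 at 8 h (0.24 to 0.29). The calls of SPRED1 at 24 h and SPRED2 at 8 h were lost on log2(TPM + 1) and log2(TPM + 0.1), with SPRED1 at 0.34 and 0.37 and SPRED2 at 0.22 and 0.23, and that of SPRED1 at 8 h on log2(TPM + 1) (0.41) and with the 4 reference genes (0.43). A noncoding gene on the same strand overlaps SPRED2, so its counts may be shared.

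All 10 genes were higher at 48 h than at 0 h in untreated cells, and 9 were in the TGFβ1 arm, where 28% and 29.8% of tested genes were higher past the threshold. The median log2 change of the 10 was 1.62 in untreated cells and 1.30 with TGFβ1, against 0.008 and 0.016 over all tested genes. In untreated cells the rise ran from 1.41-fold for DUSP1 to 6.2-fold for SPRY1. In the TGFβ1 arm SPRY2 rose 3.82-fold and SPRED3 6.26-fold, while DUSP1 did not differ past the threshold from its level at 0 h (-0.01 ± 0.079, adjusted p = 0.89). Both arms share the serum deprivation and the time in culture, and the comparison of 48 h with 0 h crosses the codes of the tables.

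**Figure D3:**
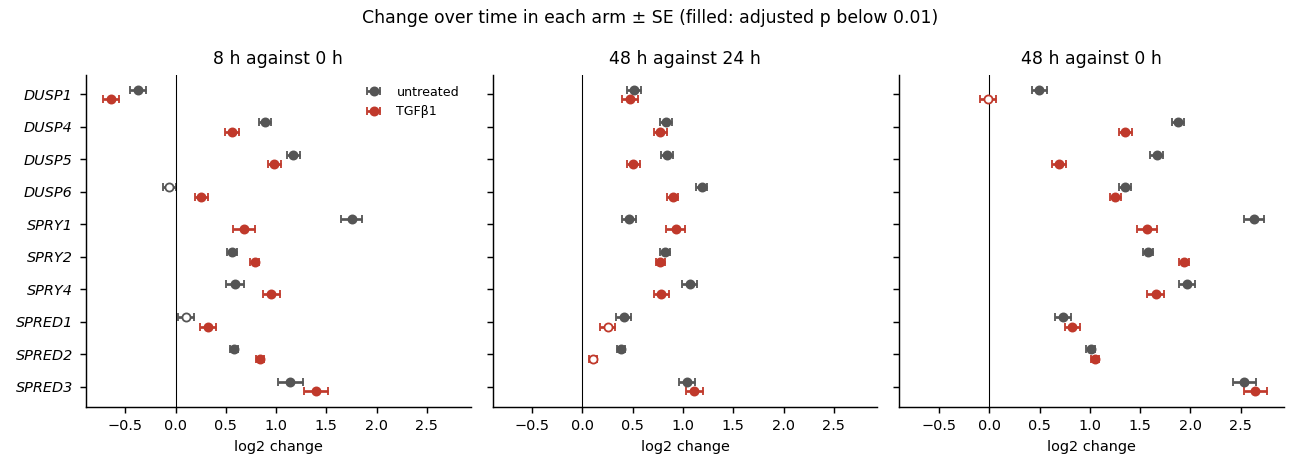
Log2 change with its SE in untreated (grey) and TGFβ1 (red) cells for 8 h against 0 h, 48 h against 24 h and 48 h against 0 h, from limma voom on 3 libraries per group; filled points passed an adjusted p of 0.01. DUSP1 is the gene to the left of 0 in both arms at 8 h (-0.37 and -0.64), and SPRY1 has the widest gap between the arms at 48 h against 0 h.

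The rise was also present within codes. From 0 to 8 h, 7 genes rose and DUSP1 fell in untreated cells (13.2% of tested genes rose), and 9 rose and DUSP1 fell with TGFβ1 (17.5% of tested genes rose). DUSP1 fell 1.29-fold in untreated cells (-0.37 ± 0.078, adjusted p = 0.00078) and 1.56-fold with TGFβ1 (-0.64 ± 0.081, adjusted p = 1.7e-06). From 24 to 48 h all 10 rose in untreated cells (14.7% of tested genes) and 8 with TGFβ1 (12.4%), SPRED1 and SPRED2 being the others. SPRED1 was near the threshold there (0.25 ± 0.076, adjusted p = 0.012) and gained a call in 10 of 14 other settings, DESeq2 and both fits with the replicate number as a block among them. From 8 to 24 h, where the codes change, 6 genes rose and DUSP5 fell in untreated cells (33% of tested genes changed), and SPRY2 rose and DUSP5 fell with TGFβ1 (28.4%). The untreated count of 7 fell to 4 without untreated replicate 1 or 3 at 24 h. Among the untreated rises from 24 to 48 h, that of DUSP6 was the largest, 2.28-fold. It came after no change past the threshold from 0 to 8 h (-0.06 ± 0.064, adjusted p = 0.5). In the TGFβ1 arm the rises of DUSP6 and SPRED1 from 0 to 8 h were small, 0.26 ± 0.062 and 0.32 ± 0.078, and were lost in 6 and 4 of 14 other settings. The call of SPRED3 in untreated cells (1.14 ± 0.12) was lost on both TPM scales and with length-scaled counts. The DUSP6 call was lost without TGFβ1 replicate 1 or 2 at 0 h or replicate 1 or 3 at 8 h (0.22 to 0.32 over all left-out libraries), and the SPRED1 call without TGFβ1 replicate 1 or 3 at 0 h or replicate 3 at 8 h (0.28 to 0.41).

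The order of the genes by level was similar in the arms. At 0 h SPRY2 was first with a mean of 17.7 TPM in untreated cells, followed by SPRED2 at 14.9 TPM. DUSP1, DUSP4, SPRED1 and DUSP5 followed at 11.8, 11.3, 10.1 and 9.86 TPM, and each of these neighbours overlapped the next. DUSP6 was at 7.43 TPM, and SPRY1, SPRY4 and SPRED3 were at 2.00, 1.85 and 1.29 TPM. At 48 h in untreated cells SPRY2 (56.6 TPM) led DUSP4 (44.1 TPM) and DUSP5 (32.9 TPM), with SPRED3 last at 3.76 TPM. With TGFβ1 at 48 h SPRED2 (31.3 TPM) and SPRED1 (22.6 TPM) stood above DUSP5 (18.7 TPM), which they did not in untreated cells.

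SPRED3 (ENSG00000188766, chromosome 19, 38388421 to 38399587, plus strand) did not pass a test between the arms at any time in the main fit. Its differences ran from -0.01 ± 0.14 at 0 h to 0.24 ± 0.094 at 8 h. Its rise over time depended on the transcript counted. SPRED3-201, of 4778 bases, was at 0.331, 0.334 and 0.358 TPM at 0 h in untreated libraries and at 2.56, 2.52 and 2.68 TPM at 48 h, and in the TGFβ1 arm it went from 0.341, 0.353 and 0.402 TPM to 2.83, 2.76 and 2.68 TPM. The short transcript SPRED3-207, of 560 bases, was at 0.168, 0.349 and 0.619 TPM at 0 h in untreated libraries and 0.581, 0.649 and 0.487 TPM at 48 h. The share of SPRED3-201 in the gene's TPM went from 26.3% to 68.8% in untreated cells and from 34.4% to 72.1% with TGFβ1. Summed counts, in which the long transcript weighs most, rose 5.79-fold in untreated cells (2.53 ± 0.11, adjusted p = 4.3e-14), whereas the mean summed TPM rose from 1.29 to 3.76.

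**Figure D4:**
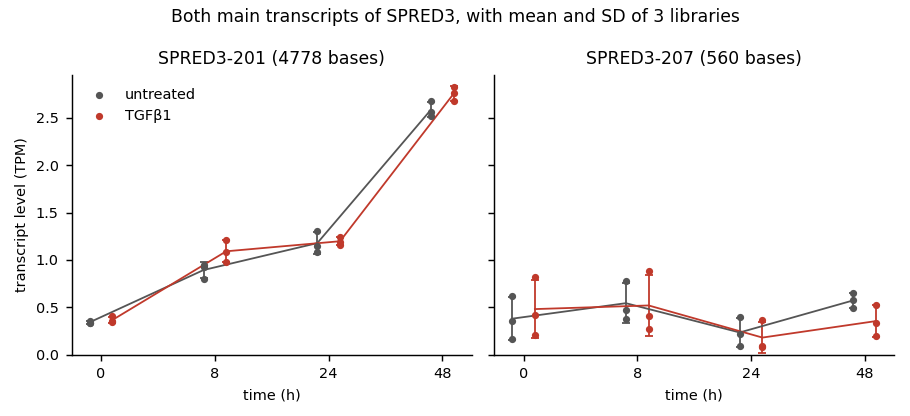
Level in TPM (vertical axis from 0) of SPRED3-201 and SPRED3-207 at 0, 8, 24 and 48 h (evenly spaced) in untreated (grey) and TGFβ1 (red) libraries; points are libraries, and lines and bars give the mean and SD of 3. SPRED3-201 reaches 2.52 to 2.83 TPM at 48 h in both arms, while SPRED3-207 is at most 0.879 TPM in any library.

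Across the 8 group means of log2(TPM + 1), SPRY4 and SPRED3 had the most similar courses among the 10 genes (Pearson r = 0.961), and DUSP1 correlated with the others at 0.063 to 0.579. Of 11716 genes that reached 5 TPM, the courses most like that of DUSP6 were those of TEKT4P2 (0.987), WIZ (0.987) and PSKH1 (0.985). NECAP2 (0.996), ZDHHC9 (0.995) and HGSNAT (0.995) were most like SPRY2, and EVL (0.984), NOTUM (0.982) and DUXAP8 (0.981) most like SPRED1. These are descriptions over 8 means that share their libraries and codes.

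Other genes of the pathway moved in mixed directions. All 12 ERK-responsive genes passed the F-test, which 42.5% of all tested genes passed, 7 with a mean difference above 0 and 5 below (median 0.46, against -0.019 over all genes). The adjusted p beside each mean here is that of the F-test, which is not a test of the mean itself. Above 0 were SPHK1, sphingosine kinase (1.35 ± 0.081, adjusted p = 1e-10), and EPHA4, an ephrin receptor (1.12 ± 0.038, adjusted p = 5.1e-15). Below 0 were the transcription factors EGR1 (-0.75 ± 0.047, adjusted p = 6.7e-12) and FOSL1 (-0.68 ± 0.062, adjusted p = 2.8e-08). EGR1 was at 19.3 TPM in untreated cells at 24 h against 7.12 TPM, and FOSL1 at 57.3 TPM at 48 h against 26.0 TPM.

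Of 15 genes of the RAS, RAF, MEK and ERK cascade itself, 7 passed, near the 42.5% of all tested genes, all 7 with a mean above 0 (median of the 15, 0.10). As above, each adjusted p is that of the F-test and not of the mean beside it. KSR1, a scaffold of the cascade, was highest (0.83 ± 0.029, adjusted p = 1e-14), with 40.7 TPM at 48 h with TGFβ1 against 21.8 TPM, and SOS2, a RAS exchange factor, followed (0.30 ± 0.045, adjusted p = 8.6e-05). Of 7 other phosphatase and Sprouty genes, 5 passed, 4 above 0 and 1 below (median 0.09, against 42.5% of all tested genes passing). DUSP8, a phosphatase of JNK and p38, had a mean of 1.15 ± 0.26 (adjusted p = 0.004) at no more than 1.26 TPM, DUSP7, a cytoplasmic ERK phosphatase, 0.26 ± 0.054 (adjusted p = 0.0019) and SPRY3 -0.51 ± 0.057 (adjusted p = 4.6e-07). Of 10 other inhibitors of the pathway, 6 passed, 4 above 0 and 2 below (median 0.12), where again 42.5% of all tested genes did. RASA1, which inactivates RAS, was at 0.82 ± 0.032 (adjusted p = 7.5e-14) and the ubiquitin ligase CBLB at 0.76 ± 0.067 (adjusted p = 1.2e-08). ERRFI1, an inhibitor of the EGF receptor, was the lowest (-1.05 ± 0.035, adjusted p = 3.7e-15), and at 48 h it averaged 79.9 TPM in untreated cells against 31.6 TPM with TGFβ1. PEBP1, a RAF inhibitor, was at -0.17 ± 0.025 (adjusted p = 6.9e-06).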

How the data were processed

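RNA-Seq was done on 24 SK-MES1 libraries, 12 per arm, and 1 table per library was deposited. Per the labels, the authors quantified reads with kallisto 0.43.0 on GRCh38, against Ensembl transcripts. The deposited estimated counts are expected reads per transcript, not normalized. The TPM values deposited by the authors divide them by effective length and scale each library to the same total. The deposited effective lengths were used only for length-scaled counts.

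Transcripts were assigned to genes with GENCODE release 44 (155518 of 173259 matched, 94.82% to 95.18% of counts). After summing over the transcripts of a gene, the estimated counts were rounded, and the 17453 genes reaching 10 counts in 3 or more libraries were tested with limma 3.58.1 voom in R 4.3.3, with TMM factors and 1 mean per group over all 24 libraries. limma voom, the F-test and the Benjamini-Hochberg adjustment over all tested genes follow the study's methods. The gene annotation, rounding, filter, TMM factors and model were chosen here. So were the contrasts of the F-test, which the study does not give, so its count of genes past the threshold need not match. The threshold was an adjusted p of 0.01. Differences are TGFβ1 minus untreated on the log2 scale, and settings on log2(TPM + 1) understate changes of low genes. The scripts were tested on simulated data. Alternatives were edgeR 4.0.16, DESeq2 1.42.0, other scalings, filters, pseudocounts of 1 and 0.1, a replicate block and each library left out.

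Deviations of same-numbered libraries correlated between arms at 0 h (0.204 to 0.633) and at 24 h (0.341 to 0.653), but not at 8 h (-0.079 to 0.089) or 48 h (-0.01 to 0.135). The pairing comes from these correlations alone.

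The genes and lists were chosen with earlier results of these data known. The named genes were all 10 members and, in each pathway list, up to 2 with the largest mean rise and 2 with the largest mean fall past the F-test. The sequencing depth limits precision only for low transcripts such as those of SPRED3, which had 63 to 514 estimated counts. No sample was left out of the main fit. Another gene of the treatment check is not reported here.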

Additional observations from a re-analysis of the deposited data

Results flagged for a closer look

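Between treated time points, the difference between TGFβ1 and untreated cells changed in 3 cases by a test of that change itself. The difference in DUSP5 moved by -0.446 on the log2 scale from 8 to 24 h (adjusted p = 0.0015 in limma voom). The difference in SPRY1 moved by 0.465 from 24 to 48 h (adjusted p = 0.0067), and that in SPRED2 by -0.284 over the same interval (adjusted p = 0.0014). The 24 and 48 h tables of an arm carry the same code, whereas those of 8 and 24 h do not, and the part of the code in the DUSP5 value was not tested. The SPRY1 and SPRED2 values rest on the same 12 libraries. The DUSP5 call was lost on log2(TPM + 1), on log2(TPM + 0.1) and with 4 reference genes, and the SPRED2 call in 4 of 14 other settings. The SPRY1 call was the least firm, lost in 7 of 14 other settings and without any 1 of 8 libraries. Groups of 3 libraries were not tested for outlying values. A chi-square per gene between the counts of 2 replicates describes their spread. In the TGFβ1 arm at 0 h it was 60.48 and 40.24 for pairs with replicate 2, against 16.76 for the other pair. At 24 h in that arm it was 47.05 and 35.65 for pairs with replicate 2, against 6.74. The main fit shares 1 estimate of the spread per gene over all groups.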

How the results depend on the processing

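Over 14 or 15 other settings, 2098 of 2250 values of single genes kept their side of the threshold. Of the rest, 103 lost a call, 46 gained one and 3 reversed direction. A reversal was counted only where the value passed in the main fit or in the other setting. The 2098 thus include values that passed in neither and changed sign, such as DUSP5 at 8 h (-0.024, and up to 0.03). Scaling to the study's 4 reference genes moved the median of all genes by 0.429 at 24 h and 0.339 at 48 h, and with it DUSP4 at 24 h came to 0.023, DUSP6 at 48 h to 0.29 and DUSP1 at 48 h against 0 h with TGFβ1 to 0.581. Library totals moved that median by -0.11 at 24 h. At 8 h the count of genes past the test between arms was 4 on log2(TPM + 1) and 5 on log2(TPM + 0.1). The count whose change from 0 to 8 h differed was 1 on both TPM scales, with length-scaled counts, with the reference genes and with only the libraries tested, and 5 at an adjusted p of 0.05. From 24 to 48 h it was 1 in edgeR and without a filter, 4 in DESeq2 and at an adjusted p of 0.05, and 0 on both TPM scales, with length-scaled counts and with the reference genes. From 8 to 24 h it was 3 in DESeq2 and at an adjusted p of 0.05, 2 with the reference genes, with at least 10 counts in all libraries, with a block within time points and with only the libraries tested, and 0 on both TPM scales. The count changed from 8 to 24 h in untreated cells was 4 on log2(TPM + 1) and with the block within time points, 3 on log2(TPM + 0.1) and 1 with the reference genes, and in the TGFβ1 arm it was 4 in DESeq2 and at an adjusted p of 0.05 and 7 with the reference genes. The mean difference in SPRY4 over 8, 24 and 48 h lost its call in 9 of 15 other settings and in 16 of 24 fits without 1 library. That in DUSP6 lost its call in 5 of 15 other settings. All genes past the F-test numbered 4354 as change from 0 h, and taken so the mean differences in SPRED1, DUSP6 and SPRY4 came to 0.187, 0.138 and 0.008 and lost their calls.

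Leaving out 1 library at a time gave 6761 to 8124 such genes. For the 10 genes it gave 9 to 9 in the F-test, 0 to 0 at 0 h, 6 to 8 at 8 h, 7 to 8 at 24 h, 5 to 6 at 48 h, 1 to 3 and 1 to 4 for differing changes from 0 to 8 h and from 24 to 48 h, and between 8 and 10 for changes from 0 to 8, 24 to 48 and 0 to 48 h. From 8 to 24 h it gave 4 to 7 in untreated cells, 2 to 3 with TGFβ1 and 1 to 2 for differing changes. The highest count for a differing change, 4, was without TGFβ1 replicate 3 at 0 h. With the replicate number as a block, 9 genes passed the F-test, as without it, DUSP5 from 24 to 48 h (-0.332) and SPRED1 with TGFβ1 from 8 to 24 h (0.255) and 24 to 48 h (0.251) gained calls, and the mean difference in SPRY4 lost one (0.142). A block within time points, added once the data had been seen, gave 4 genes with a differing change from 0 to 8 h, adding DUSP4 (-0.328) and SPRED1 (0.211), and gained calls for DUSP5 from 24 to 48 h (-0.333), SPRY4 at 48 h (-0.176) and from 8 to 24 h (-0.391), and SPRED1 with TGFβ1 from 8 to 24 h (0.2) and 24 to 48 h (0.329). It lost those of DUSP6 with TGFβ1 from 0 to 8 h (0.313) and of DUSP6, SPRY4 and SPRED3 in untreated cells from 8 to 24 h (0.227, 0.279 and 0.327). The causes were not tested.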
